A study of Mus musculus with 4 samples.

Results

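The 5 genes Mbp, Cnp, Tspan2, Gsn and Trf, which are strongly expressed by myelinating oligodendrocytes, were followed in spinal cord of mice with and without AT-EAE. They were looked up by symbol in the annotation of the array platform, which assigned 9 spots to them alone, of 18511 spots assigned to a single gene and of 10225 genes in all. Mbp had 4 spots, Tspan2 had 2, and Cnp, Gsn and Trf had 1 each. AT-EAE stands for experimental autoimmune encephalomyelitis by adoptive transfer. T cells that react to myelin are given to recipient mice, which models multiple sclerosis. All mice were adult SJL/J females, labelled as control in the first group and as AT-EAE in the other. The labels used here give no stage of disease, clinical score or age in weeks, nor what the control mice received.

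RNA came from pools of the cords of 2 mice, and 4 such extracts stood for each group. Each of the 4 cDNA arrays was read in 2 colours and compared a pair of extracts from the same group, with a channel for each. The first array of a group held extracts 1 and 2 and is array 1 in the plots, and the second held extracts 3 and 4. The spread between the mice of a pool cannot be seen. The value of a spot is the log ratio of these channels, taken as base 2, and which extract is the numerator is not given in the sources used here. A negative value therefore means a lower normalized signal of that spot in the numerator channel, and says nothing of which mice were sicker. Since both channels held the same group, no value compares the level in AT-EAE with that in control.

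Myelin is the membrane that oligodendrocytes wrap around axons in the central nervous system, and its loss is the hallmark of multiple sclerosis and of its mouse models. Mbp encodes myelin basic protein, which holds the cytoplasmic faces of the sheath together. Cnp encodes a cyclic nucleotide phosphodiesterase of the uncompacted parts of the sheath. Tspan2 encodes a tetraspanin of the oligodendrocyte membrane. Gsn encodes gelsolin, which severs actin filaments, and Trf encodes transferrin, the iron carrier. The last pair are also made by other cells, gelsolin by fibroblasts and many others, and transferrin mainly by the liver. In bulk tissue, fewer cells of a type and less RNA per cell cannot be told apart.

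Cnp, Tspan2 and Gsn are the genes of the 5 that the promoter table held, and they were also the lowest on the first AT-EAE array. The sequence before their start sites is shown. The sequences are from RefSeq on GRCm38.p6, plus strand, and run from 250 to 31 bases before a transcript start, 220 bases each. Capitals mark ACAAAG or its reverse complement CTTTGT, the core recognised by SOX transcription factors, a family that includes Sox10 of oligodendrocytes.
Cnp: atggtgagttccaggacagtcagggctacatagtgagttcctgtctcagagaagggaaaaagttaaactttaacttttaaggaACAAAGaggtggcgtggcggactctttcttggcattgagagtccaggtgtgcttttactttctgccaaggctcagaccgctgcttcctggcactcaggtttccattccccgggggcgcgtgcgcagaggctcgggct
Tspan2: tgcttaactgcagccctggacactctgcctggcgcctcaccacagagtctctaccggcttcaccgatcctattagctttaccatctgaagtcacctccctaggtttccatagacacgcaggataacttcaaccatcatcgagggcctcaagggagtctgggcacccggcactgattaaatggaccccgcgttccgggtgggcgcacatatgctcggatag
Gsn: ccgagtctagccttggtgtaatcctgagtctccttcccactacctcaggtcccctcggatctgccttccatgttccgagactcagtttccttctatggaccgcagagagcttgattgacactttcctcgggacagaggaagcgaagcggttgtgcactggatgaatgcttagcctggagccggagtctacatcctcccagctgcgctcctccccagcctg
The Cnp window is chr11:100574689-100574908. It ends directly before the Cnp span given below, so the transcript start used for Cnp lies inside that span. The window of Tspan2, the most upstream of 2 listed, is chr3:102734520-102734739, and that of Gsn, the most upstream of 3 starts, is chr2:35256109-35256328. Cnp held 1 match to the SOX core, and Tspan2 and Gsn held none of these letters. Of 32851 windows of the same kind, 14.8% held a match. A GC box, GGGCGG or its reverse complement CCGCCC, which can share 1 base with the SOX core, was in none of the windows shown and in 28.5% of all. A match is a description of the letters and not a binding site. On the same build Cnp spans chr11:100574909-100591875, Tspan2 chr3:102734770-102772310, Gsn chr2:35256359-35307902 and Trf chr9:103208876-103230286. Where in these transcripts the clones on the array lie was not analysed here.

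Over the whole arrays, values were present for 37.6% to 73.6% of the 28704 spots, fewer on each AT-EAE array than on either control array. The median value over spots lay between -0.072 and 0.011 on the 4 arrays. The spread over genes was taken as the median absolute deviation (MAD), scaled to a standard deviation. It was 0.18 and 0.23 in control, the first array before the second, against 0.17 and 0.33 in AT-EAE. Spots of a gene differed from each other with a pooled standard deviation of 0.24 and 0.28, and of 0.24 and 0.36. This spread between spots, which also holds differences between clones, is the one to set beside a gene with a single spot. Of the markers of spinal cord cells, 8 astrocyte and 7 neuron genes had spots, while Gfap was not analysed here.

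The first question was whether spots of these genes had values on each array. All 5 genes had a value on every array through at least 1 spot. In control, 7 of the 9 spots had a value on the first array and 9 on the second, or 77.8% and 100%. Over all spots of a single gene, the shares there were 80.9% and 72.9%. In AT-EAE, 8 of the 9 had a value on the first array and 7 on the second, or 88.9% and 77.8%, while the shares over all such spots were 61.7% and 42.1%. The 9 spots were thus near the share of all spots on the first control array, at 77.8% against 80.9%, and above it on the other 3. The mean share in control was 88.9% ± 15.7 (SD, n = 2 arrays). That in AT-EAE was 83.3% ± 7.86 (SD, n = 2 arrays). This difference of -5.56 percentage points was smaller than the spread between the control arrays (2-sided exact permutation p = 1, where 4 arrays allow no p below 0.333). It changed sign without the second control array, at 5.56, and was 0 without the second AT-EAE array.

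All missing values were those of Mbp. Spots 2827 and 16455 of Mbp had no value on the first control array, spot 2033 had none on either AT-EAE array, and spot 26120 had none on the second AT-EAE array. No Mbp spot had a value on all 4 arrays, so the arrays measured Mbp through different sets of spots. The single spots of Cnp, Gsn and Trf and both spots of Tspan2 had values throughout. What made a spot lose its value is not given in the sources used here.

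**Figure D1:**
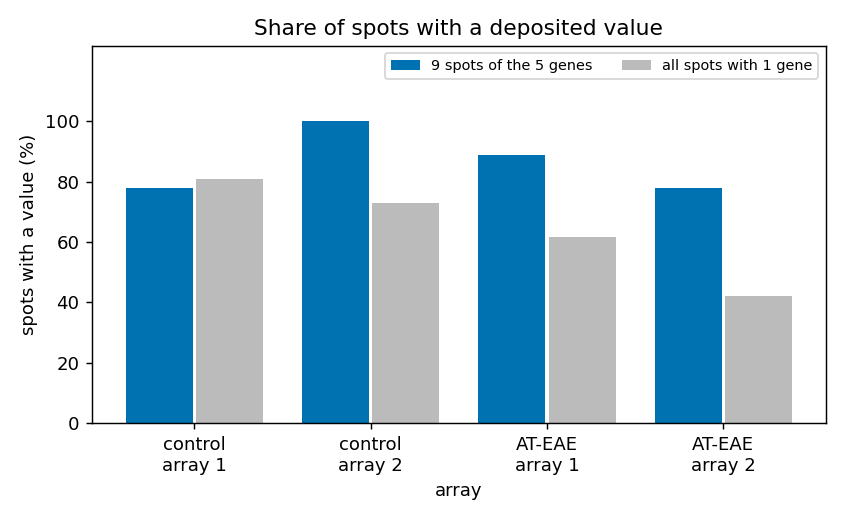
Share of spots with a deposited value, in percent, on each of the 4 arrays, for the 9 spots of Mbp, Cnp, Tspan2, Gsn and Trf (blue) and for all 18511 spots assigned to 1 gene (grey). The grey bars fall from 80.9% on the first control array to 42.1% on the second AT-EAE array, while the blue bars lie between 77.8% and 100%.

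The second question was the ratio of each spot. Mbp, the structural protein, had a ratio of 0.36 at spot 2033 and of 0.19 at spot 26120 on the first control array. On the second control array its spots 2033, 2827, 16455 and 26120 had ratios of -0.23, 0.24, -0.10 and -0.61. On the first AT-EAE array spots 2827, 16455 and 26120 had ratios of 0.061, -0.53 and -0.17. The spots did not share a side on these last arrays, where the highest and lowest differed by 0.85 and 0.60. On the second AT-EAE array spots 2827 and 16455 had ratios of 0.028 and 0.0096, close together. As a mean over its spots, Mbp was at 0.28 ± 0.12 (SD, 2 spots) on the first control array and -0.18 ± 0.35 (SD, 4 spots) on the second control array. It was at -0.22 ± 0.30 (SD, 3 spots) on the first AT-EAE array and 0.019 ± 0.013 (SD, 2 spots) on the second AT-EAE array. The mean was larger than the deviation between its spots on the first control array and, at a level near 0, on the second AT-EAE array. It was smaller on the other pair. Spot 2827 was at or above 0 on every array where it had a value, and spot 26120 was the lowest Mbp spot on the control arrays.

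Cnp, the phosphodiesterase, was at -0.017 and -0.093 in control and at -0.56 and -0.12 in AT-EAE, the first array before the second. The value on the first AT-EAE array stood apart from the other 3 and was the most negative of the 5 genes there. It lay 0.56 below the median gene of that array, a 1.48-fold difference if the base is 2, and 2.12% of the genes of the array were lower. In MAD-based standard deviations over genes it was at -3.25. With a single spot, Cnp has no error of its own.

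Tspan2, the tetraspanin, had values from both of its spots on each array. Spot 13707 had ratios of -0.39, -0.38, -0.42 and -0.22 on the control and then the AT-EAE arrays. Spot 25291 had ratios of -0.010, -0.21, -0.34 and 0.080 on the same arrays. Spot 13707 was the lower on every array, by 0.38, 0.17, 0.085 and 0.30. Its values varied little, with a standard deviation of 0.13 across the 4 arrays after centring on the array median, against 0.22 for spot 25291 and a median of 0.20 over the 7391 spots of a single gene with values on all 4 arrays. The spots of Tspan2 agreed most closely on the first AT-EAE array, where their mean was -0.38 ± 0.060 (SD, 2 spots) and 5.27% of genes were lower. On the first control array their mean was -0.20 ± 0.27 (SD, 2 spots), smaller than the deviation between them.

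Gsn, the actin-severing protein, was at 0.27 and -0.0032 in control and at -0.35 and 0.15 in AT-EAE. It was high on the first control array, where 94.1% of genes were lower, and low on the first AT-EAE array, where 6.14% were. Trf, the iron carrier, was at 0.23 and -0.031 in control and at -0.064 and -0.49 in AT-EAE. It was high on the first control array, where 90.8% of genes were lower, and low on the second AT-EAE array, at -1.26 MAD-based standard deviations from the median gene. No gene of the 5 reached a ratio of 2-fold on any array. Genes that did made up 0.136% and 0.391% of those on the control arrays, and 0.365% and 1.07% of those on the AT-EAE arrays.

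**Figure D2:**
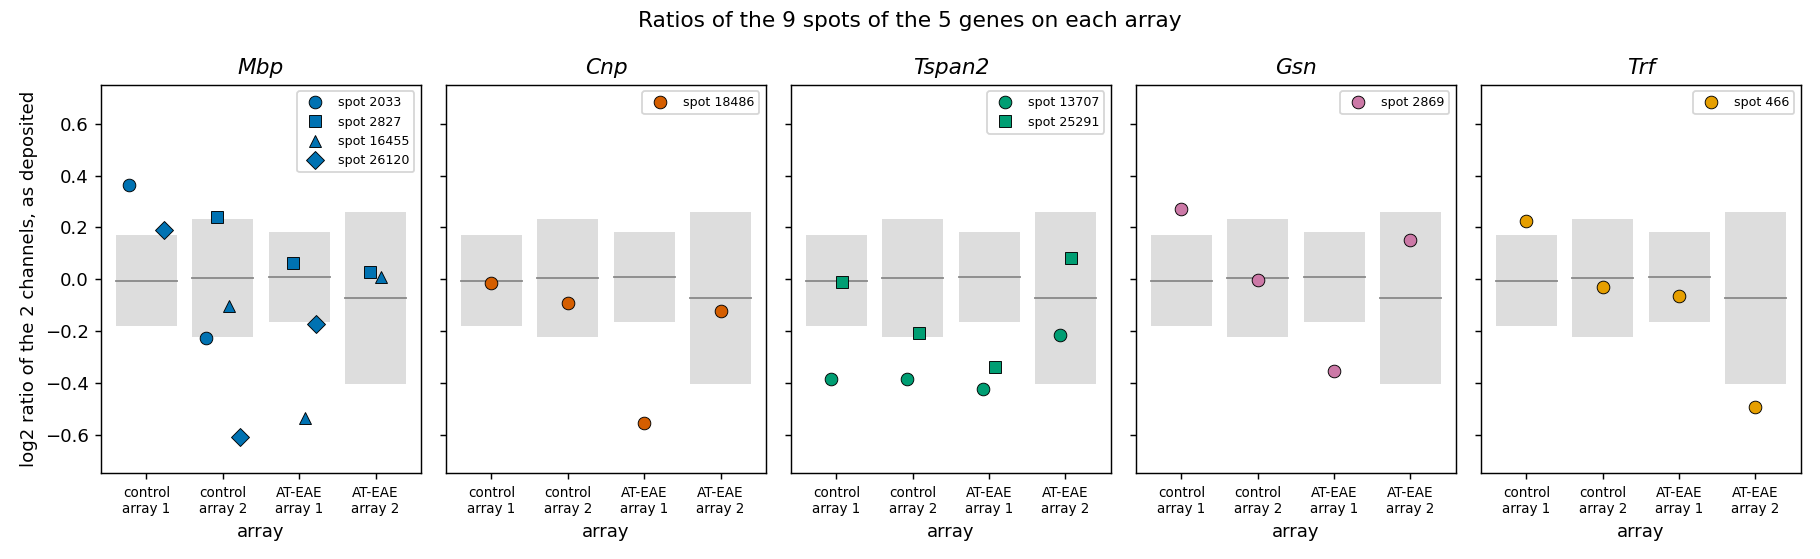
Log2 ratio of the 2 channels for each spot of Mbp, Cnp, Tspan2, Gsn and Trf on the 4 arrays, as deposited, with a marker for each spot and a missing marker where the spot had no value. Grey lines mark the median gene and grey bands reach 1 MAD-based standard deviation to each side. Cnp left the band on the first AT-EAE array alone, at -0.56, and the Mbp spots spread from -0.61 to 0.24 on the second control array.

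The third question was whether the 5 genes moved together between the extracts of an array. Each gene's ratio, as the mean over its spots, was taken relative to the median gene of the array. On the first AT-EAE array all 5 lay below the median, in the order Cnp, Tspan2, Gsn, Mbp and Trf, at -0.56, -0.39, -0.36, -0.22 and -0.073. Their median was -0.36, and 4 of the 5 lay more than 1 MAD-based standard deviation below, against 19.0% of all genes of that array. None lay as far above, against 14.3% of all. Trf was the gene within that distance. Of the 8 spots with a value, 7 were below the median, and Mbp spot 2827 was above.

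On the second control array all 5 genes were also below the median, but by less, in the order Tspan2, Mbp, Cnp, Trf and Gsn, at -0.30, -0.18, -0.097, -0.035 and -0.0072. Their median was -0.097, and only Tspan2 lay more than 1 MAD-based standard deviation below, 1 of 5 genes against 18.5% of all. None lay as far above, against 14.6% of all. Trf and Gsn were within 0.04 of the median gene, well inside the deviation between spots of a gene.

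The first control array divided the genes. Mbp, Gsn and Trf were above the median at 0.28, 0.28 and 0.23, Cnp was at -0.011 and Tspan2 at -0.19. The 3 high genes lay more than 1 MAD-based standard deviation above, against 15.3% of all genes, and Tspan2 lay as far below, against 17.8%. The median of the 5 was 0.23, and -0.011 for Mbp, Cnp and Tspan2 alone. The value thus depends on which genes are taken, with Mbp itself the highest of the 5. The second AT-EAE array showed no common direction, with Gsn at 0.22, Mbp at 0.093, Tspan2 at 0.0057, Cnp at -0.051 and Trf at -0.42. Their median was 0.0057, and turned to -0.068 without centring, since the median gene of that array was at -0.074. Trf was the 1 gene more than 1 MAD-based standard deviation below, against 14.7% of all genes, and none lay as far above, against 16.7%.

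Even where they lay on the same side, the genes differed among themselves. The range from the lowest to the highest gene was 0.47 and 0.29 in control. It was 0.49 and 0.64 in AT-EAE. The plain standard deviation over the 5 genes was 0.18 on the first AT-EAE array, where that over all genes was 0.23. Of the 10 pairs of genes, Mbp and Gsn were on the same side of the median on all 4 arrays, and no other pair was. The share of all gene pairs of the arrays that do so was not analysed here, so the count does not set this pair apart. On the second control array the shared side rests on Gsn at -0.0072, next to the median. Mbp and Gsn differed by 0.0042, -0.17, 0.14 and -0.13 in the order of the arrays, each less than the deviation between spots of a gene. Gsn and Trf differed by 0.046 and 0.028 on the control arrays, but by -0.29 and 0.64 on the AT-EAE arrays. Of their 5 spots with values on all 4 arrays, those of Cnp and Tspan2 spot 13707 were below the median on every array, as were 10.8% of the 7391 spots of a single gene with such values.

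**Figure D3:**
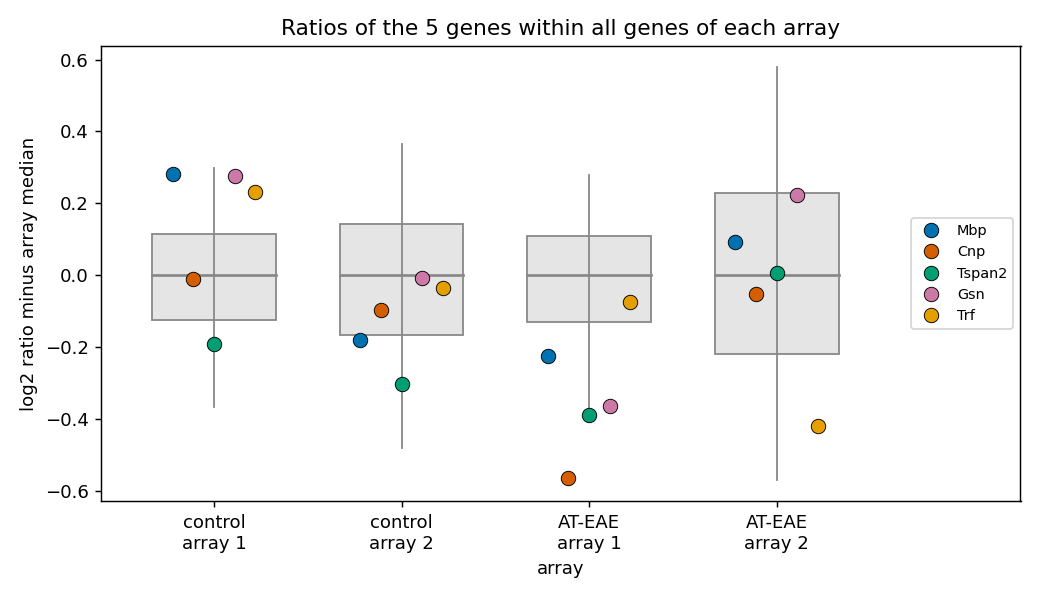
Ratio of each gene minus the median gene of the array (log2) for Mbp, Cnp, Tspan2, Gsn and Trf, as points, over the distribution of all genes of that array, with the box from the 25th to the 75th percentile, a line at the median, and whiskers from the 5th to the 95th percentile. All 5 points are below 0 on the second control array and the first AT-EAE array, and reach -0.56 on the latter. Trf is the lowest point on the second AT-EAE array, at -0.42, within the whiskers of that array.

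Extracts could differ more from each other in diseased cord, so the size of the ratios was compared between groups. The median over the 5 genes of the absolute ratio, relative to the array median, was 0.23 and 0.097 in control. In AT-EAE it was 0.36 and 0.093. Over every measured gene of the control arrays it was 0.12 and 0.15. Over those of the AT-EAE arrays it was 0.12 and 0.22. The 5 genes were thus above all genes on the first array of each group and below on the second, and the groups overlapped. The mean in control was 0.16 ± 0.095 (SD, n = 2 arrays). That in AT-EAE was 0.23 ± 0.19 (SD, n = 2 arrays). The difference of 0.064 was smaller than either of these standard deviations (exact permutation test, 2-sided, p = 1, with 0.333 the smallest possible). It turned to -0.072 without the first AT-EAE array and to -0.0038 without the second control array.

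The 4 arrays held different extracts, so whether a spot had a ratio common to all of them was examined next. The mean ratio over the arrays was tested with limma on the 15028 spots with values on at least 3 arrays. It called 8 spots at an adjusted p under 0.05, which is 0.0532%, and none of the 8 tested spots of the 5 genes was among them. At an unadjusted p under 0.05 there was 1, Tspan2 spot 13707, while 11.3% of all tested spots had such a p. Mbp spot 2033 had too few values to be tested. Tspan2 spot 13707 had a mean ratio of -0.35 with a standard error of 0.10, negative on every array. Its adjusted p from limma was 0.257 over all spots, and 0.105 to 0.596 under the alternatives. The other Tspan2 spot had a mean of -0.12 and Cnp one of -0.20, with adjusted p of 0.719 and 0.539 from limma. From spot 25291 alone, Tspan2 was at -0.0042, -0.21, -0.35 and 0.15 relative to the median gene on the 4 arrays, in place of -0.19, -0.30, -0.39 and 0.0057. The low Tspan2 value on the first AT-EAE array is thus also seen in the spot that varied between arrays, and that on the first control array is not.

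Other genes of myelin and the oligodendrocyte lineage lay nearer the median gene on the first AT-EAE array, a difference that was not tested. Of a list of 40 such genes, 10 had spots of their own, and the rest were not analysed here. The list's median relative to the array median was 0.054 and 0.095 in control, and it was -0.088 and 0.061 in AT-EAE. Below the median on the first AT-EAE array were 6 of 8 genes. These were Cryab, a small heat shock protein of oligodendrocytes, at -0.20, Mal, a membrane protein of the sheath, at -0.17, Ndrg1 at -0.14, the protease gene Adamts4 at -0.098, Qdpr at -0.078 and the tetraspanin gene Cd9 at -0.034. The carbonic anhydrase gene Car2 was at 0.14 there and above the median on all 4 arrays, at 0.18 and 0.27 in control and 0.45 on the second AT-EAE array. Pdgfra, the growth factor receptor of oligodendrocyte precursors, was at 0.081 on the first AT-EAE array.

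The lineage transcription factors had few values. Olig2 had a value on the first control array alone, 0.18 above the median, and Nkx6-2 on the control arrays alone, at 0.14 and 0.15. Of the 14 spots of this list tested with limma, 0 were called in either direction, and 1, that of Car2, had an unadjusted p under 0.05 (limma, adjusted p = 0.428, mean ratio 0.24, positive on every array). The share of 1 in 14 is below the 11.3% of all tested spots.

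Markers of other cells also departed from the median gene on these arrays. On the first AT-EAE array, where the 5 genes were lowest, all 10 measured microglia and macrophage genes were below the median, with a list median of -0.26 and values from -1.02 for Lyz2 to -0.057 for Tyrobp. Of 9 meninges and fibroblast genes, 8 were below, with a median of -0.21 and the lowest value, -0.92, for the proteoglycan gene Dcn. Astrocyte genes, at -0.020 with 4 of 8 below, and neuron genes, at -0.065 with 4 of 6 below, were nearer the median gene. The part of these cells in the low values of the 5 genes was not tested.

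On the first control array, where Mbp, Gsn and Trf were high, all 8 astrocyte genes were above the median, at a list median of 0.17, and 3 of 4 red blood cell genes, at 0.28. Neuron genes were at 0.15 there, with 4 of 7 above. On the second control array all 3 red blood cell genes with a value were also above, at 0.23, while Trf was at -0.035. On the first AT-EAE array they were at -0.019, with Trf at -0.073. On the second AT-EAE array, where Trf was low, astrocyte genes were at 0.28 with 5 of 7 above. The 3 red blood cell genes with a value were below the median there, at -0.80. Of 4 genes of iron handling 3 were below as well, at a median of -0.30, with the transferrin receptor gene Tfrc lowest at -0.40 and the ceruloplasmin gene Cp highest at 0.45. On the first control array, where Trf was high, the iron list was at -0.047 with 4 of 7 genes below. Their part in the Trf value was not tested. Of Schwann cell genes, Ngfr alone had spots, with values on the control arrays of -0.27 and 0.16, so the myelin of nerve roots could not be followed. Relatives of gelsolin, of which 2 or 3 had values on each array, were at a median of -0.071 and -0.28 on the control arrays, where Gsn was at 0.28 and -0.0072. On the first AT-EAE array Capg and Flii were at -0.064 and -0.062, with Gsn at -0.36. On the second they were at 0.51 and 0.34, with Gsn at 0.22.

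**Figure D4:**
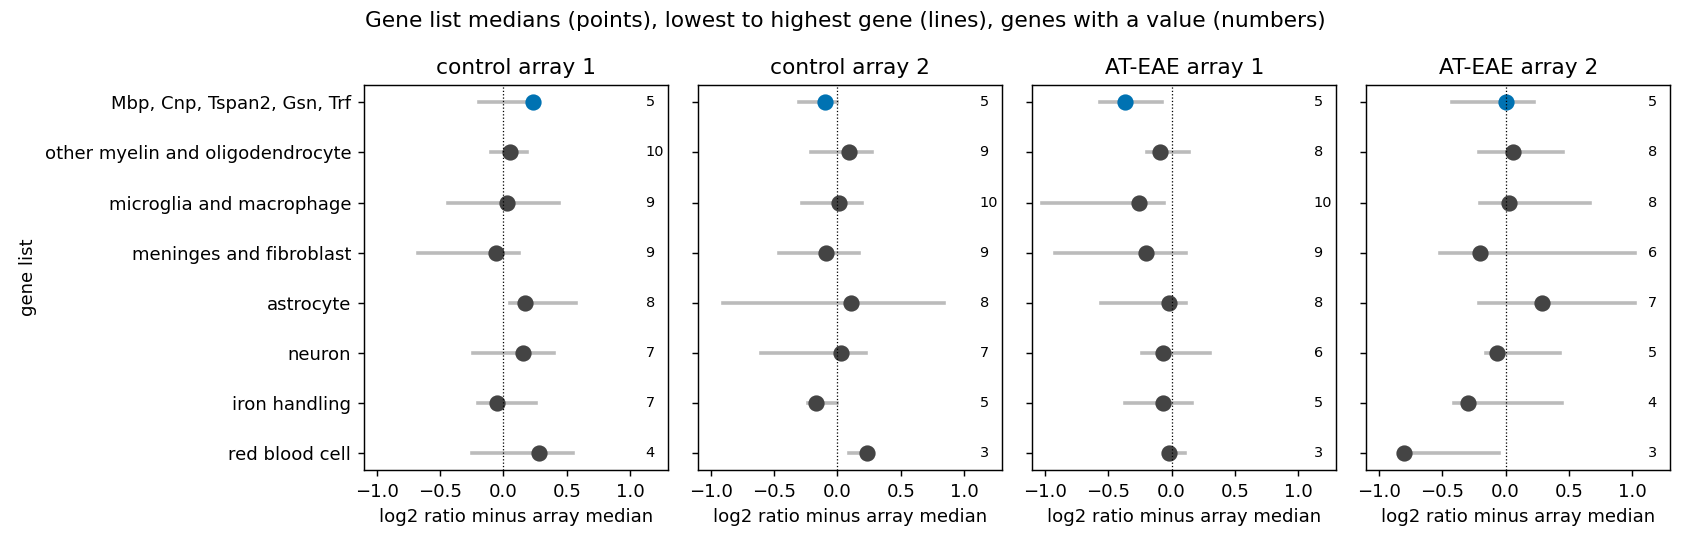
Median ratio of 8 gene lists relative to the median gene of the array (log2) on each of the 4 arrays, as points, with lines from the lowest to the highest gene and the number of genes with a value at the right. On the first AT-EAE array the 5 genes Mbp, Cnp, Tspan2, Gsn and Trf (blue) are at -0.36, the microglia and macrophage list at -0.26 and the other myelin and oligodendrocyte genes at -0.088.

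The genes whose ratios over the 4 arrays were most like the median of the 5 were sought among 3553 other genes with at least 2 spots and values on all arrays. Likeness was the mean absolute difference over the 4 arrays, with the profile of the 5 at 0.23, -0.097, -0.36 and 0.0057. The nearest were Ttl, a tubulin tyrosine ligase, at 0.024, Larp4b at 0.026, Usp34, a ubiquitin protease, at 0.027, Ndufv3, a subunit of respiratory complex I, at 0.048, and Fndc3a at 0.049. The median distance over the 3553 genes was 0.26, and a gene at the array median throughout would be at 0.17. Gsn and Mbp were at 0.088 and 0.090 from the profile they are part of, Cnp at 0.12 and Tspan2 at 0.16. Trf was at 0.19, farther than a gene with no difference between extracts.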

How the data were processed

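Total RNA of spinal cord was measured on 4 cDNA arrays, 2 per group. The deposited values were taken as log2 ratios of the normalized channel signals, since they are signed and centred near 0. Per the labels, the authors compared normalized green and red signals, while nothing used here states base, numerator, background correction or software. Base 10 would give implausibly large ratios, while base e cannot be told from base 2, so folds hold only for base 2.

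Of 28704 spots, 18511 had 1 gene in the platform annotation, 937 several and 9256 none. Symbols were updated by gene identifier to GRCm38.p6 for 18267 spots and kept for 244. The spots of a gene with a value were averaged, and the mean was centred on the median over genes of the array. Different spots of a gene can be different clones. Groups were compared by exact permutation over the 6 splits of the 4 arrays, and ratios shared by all arrays by limma with Benjamini-Hochberg adjustment, checked on simulated data. Array number limits precision, and spot brightness was not analysed here.

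The 5 genes, the gene lists and the tests were chosen with earlier results of these data known, including low myelin genes on the first AT-EAE array, so that pattern has no independent support here. Genes named were the 5, measured genes of the myelin list, the lowest or highest genes of other lists, and the 5 with the most similar ratios, with Capg, Flii and Ngfr named besides, after their values were seen. Alternatives changed the spot summary, the spots used, the symbols, the centring, the genes, the arrays and the subtraction of the other group's ratio. The tools were R 4.3.3 with limma 3.58.1, and Python 3.11.15 with pandas 2.3.3, numpy 2.4.6, matplotlib 3.10.9 and scipy 1.17.1.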

Additional observations from a re-analysis of the deposited data

How the results depend on the processing

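Of 32 alternative values of the median over the 5 genes, 31 differed from the reported value by less than the spread between the arrays of the group. The exception was the first control array with Mbp, Cnp and Tspan2 alone, at -0.011 in place of 0.23. The spread was the standard deviation of 2 signed values whose numerator extracts are not given. It would change if an array were read the other way round, so this count and that for single genes below depend on the orientation. The spread was itself larger than the size of the median on the second array of each group and, by little, on the first control array. A difference smaller than it therefore does not fix the side of 0 on these arrays. Of 116 alternative values of single genes, 8 differed by more than the spread of the gene between the arrays of its group. The others include values that a setting left as they were. The symbols of the platform changed no value, and Tspan2 from a single spot changed Tspan2 alone, so the counts overstate how far the alternatives tested the values. After subtraction of the AT-EAE ratios, Cnp turned from -0.011 to 0.32 on the first control array and from -0.097 to 0.20 on the second, Trf from -0.035 to 0.20 on the second, and Tspan2 from -0.19 to 0.023 on the first. Without a change of sign, Trf moved to 0.50 on the first and Tspan2 to -0.12 on the second. From its more variable spot alone, Tspan2 was at -0.0042 and -0.21 on these arrays. On the first AT-EAE array the median lay between -0.39 and -0.20. On the second control array it turned to 0.053 after subtraction of the mean ratio of the AT-EAE arrays, and on the second AT-EAE array it lay on either side of 0. With arrays left out, the AT-EAE minus control difference in absolute ratio ranged from -0.072 to 0.20, and that in the share of spots with a value from -16.7 to 5.56 percentage points. The 8 spots called by limma as shared by all arrays became 4 with spots on all 4 arrays, 5 with centred values and 41 to 749 with an array left out. With the replicate number as a block there were 49. The labels do not say that arrays of the same number share anything, and their deviations correlated at -0.33 over 10133 spots. With the numbers crossed, an alternative chosen after seeing the data, as were Tspan2 from a single spot and the median over all spots, 4 were called. No spot of the 5 genes that was tested under one of these was called. Those of Cnp, Tspan2, Gsn and Trf were tested under all, Mbp spots 2827, 16455 and 26120 under 2 alternatives each, and Mbp spot 2033 under none. The cause of the changes in count was not tested.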
